A study of Homo sapiens with 20 samples.

Results

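Hydroxyurea and aphidicolin both stop DNA synthesis in S phase, and the arrays described here compare the transcripts of LNCaP cells held by each drug. LNCaP is a human prostate cancer cell line of luminal type that grows in response to androgens. The 5 arrays, of 20 in the series, were chosen by their titles: the samples titled late S arrested, which had hydroxyurea (n = 3), and those titled early S arrested, which had aphidicolin (n = 2). Hydroxyurea was given at 1 mM and aphidicolin at 2 µg/mL, each for 24 h before harvest. All 5 samples came from hormone-proficient medium, with 10 nM dihydrotestosterone (DHT), a potent natural androgen, added for the final 3 h, so medium and hormone were the same on both sides. The drug and the S phase position that the labels name changed together and cannot be told apart.

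What the blocks shared was read against 9 arrays of 3 other arrests in the same medium with the same DHT. These were early G1 (0.5 µM PD-0332991, a CDK4 and CDK6 inhibitor, for 24 h), late G1 (5 µg/mL roscovitine, an inhibitor of several cyclin-dependent kinases, for 24 h) and G2/M, each with n = 3. The G2/M cells had themselves been held with 2 µg/mL aphidicolin for 15 h, then washed and given 50 ng/mL nocodazole, which prevents microtubule assembly, for 9 h. The remaining 6 arrays, of unarrested cells kept for 72 h in the medium labelled CDT with DHT or with ethanol, enter only as part of the ranges of the other 15 arrays. Nothing in the labels ties a replicate to a culture of its own, so each p-value reflects array-to-array spread alone, which may be technical.

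Hydroxyurea inactivates ribonucleotide reductase, the enzyme that turns ribonucleotides into the deoxynucleotides needed for DNA, and so starves the replication fork of its building blocks. Aphidicolin competes with deoxynucleotides at the replicative DNA polymerases and leaves the supply intact. Both leave stretches of single-stranded DNA at stalled forks, which recruit the ATR and CHK1 kinases, and prolonged stalling breaks forks and activates p53. Hydroxyurea is also a radical-forming, iron-binding compound, used in the clinic in blood disorders, where it raises fetal globin. Replication-dependent histone transcripts are made in S phase and are degraded when DNA synthesis stops.

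The array that stood most apart was hydroxyurea replicate 1. Its median intensity was 6.15, against 7.24 to 9.08 on the other 4 arrays, and 15.9% of its 18417 genes lay under an intensity of 1, against 3.57% to 10.2% on those 4. Across 5879 brighter genes, it correlated at 0.608 and 0.824 with its own group, while hydroxyurea replicate 2 correlated at 0.918 with aphidicolin replicate 2 and at 0.608 and 0.796 with its own group (genes are not independent replicates). Arrays of the 2 blocks were thus not set apart from each other on the whole: the 6 correlations between blocks ran from 0.574 to 0.918. The number of arrays limits the precision, and the median standard error of a difference was 0.80 on the log2(intensity + 1) scale used throughout. Differences are hydroxyurea minus aphidicolin, ± SE, from 1 limma fit over all 20 arrays, with p adjusted by Benjamini-Hochberg over all genes. Because many probe sets were dim, calls were also made with a pseudocount of 16 instead of 1, which shrinks differences of dim genes and gives a median standard error of 0.27. The luminal markers of the line were present, with KLK3, which encodes prostate-specific antigen, between 9.06 and 9.76 on the 5 arrays, and of 14 luminal markers 2 had a mean below 4, against 13 of 14 stromal and 10 of 12 leukocyte markers.

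Few genes separated the drugs beyond the spread of the arrays. With hydroxyurea 1 gene was higher by limma (0.00543% of 18417) and 0 were lower, and 1077 genes (5.85%) had an unadjusted p below 0.05. With a pseudocount of 16, 3 genes were higher (0.0163%) and 1 was lower (0.00543%). Without aphidicolin replicate 1 that setting called 1 gene higher and 3 lower, and without aphidicolin replicate 2 it called 0. The arrays of the groups did not overlap for 1601 genes higher with hydroxyurea (8.69%) and 1881 lower (10.2%). By sign alone, the difference was below 0 for 10738 of 18417 genes and above 0 for 7679. Counts within gene groups below are read against these shares. In these bulk samples, fewer cells making a transcript and less of it per cell cannot be told apart. The 4 genes called with the larger pseudocount were GSN, HMOX1 and GDF15, higher with hydroxyurea, and GNAI1, higher with aphidicolin.

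GSN encodes gelsolin, a calcium-dependent protein that severs and caps actin filaments. It lay at 8.40, 7.65 and 7.98 with hydroxyurea and at 5.24 and 4.60 with aphidicolin. All 3 hydroxyurea arrays were above every other array of the series, where the highest was 6.72, and of the aphidicolin arrays replicate 1 lay inside and replicate 2 just below the 4.61 to 6.20 of the other arrests. The difference was 3.09 ± 0.56 (95% interval 1.92 to 4.26, adjusted p = 0.212), and with a pseudocount of 16 it was 2.59 ± 0.33, 6.0-fold on that scale (adjusted p = 0.00566). This was the gene of the 4 whose call held most often when single S arrays were left out. It was lost without aphidicolin replicate 2 (adjusted p = 0.112) and kept without hydroxyurea replicate 1 (adjusted p = 0.04995, just inside the threshold), and was also lost when the fit held the 5 S arrays alone (adjusted p = 0.611). With genes of mean below 4 left out, GSN passed without the larger pseudocount (adjusted p = 0.0247).

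HMOX1 encodes heme oxygenase 1, which breaks down heme into iron, carbon monoxide and biliverdin and is induced by oxidants and free heme. Its levels were 7.95, 7.50 and 7.87 with hydroxyurea and 5.09 and 5.12 with aphidicolin. The aphidicolin arrays sat inside the range of the other arrests, 4.04 to 5.72, while every hydroxyurea array exceeded the highest of the other 15 arrays, 7.08. The difference was 2.67 ± 0.56 (adjusted p = 0.372), or 2.24 ± 0.33 with a pseudocount of 16 (adjusted p = 0.0139), 4.73-fold on that scale. When the fit held the 5 S arrays alone, HMOX1 and GDF15 had an adjusted p of 0.611 and GNAI1 of 0.950. Without aphidicolin replicate 1 the adjusted p of HMOX1 was 0.214, without replicate 2 it was 0.112, and without hydroxyurea replicate 1 or 3 it was 0.0746 or 0.0836.

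GDF15 encodes growth differentiation factor 15, a secreted member of the TGF-β superfamily that cells release under stress and that p53 can induce. It lay at 10.44, 10.42 and 10.54 with hydroxyurea and at 8.40 and 8.55 with aphidicolin. The other arrests ran from 7.95 to 9.47, so the aphidicolin arrays were within their range and the hydroxyurea arrays above it. The difference of 1.99 ± 0.50 (adjusted p = 0.775) changed little with a pseudocount of 16, at 1.94 ± 0.30, 3.85-fold, where it passed (adjusted p = 0.0171). Leaving out any of the 5 arrays ended that call, with adjusted p between 0.0536 and 0.329, while the difference stayed between 1.87 and 2.02.

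GNAI1 encodes an inhibitory alpha subunit of heterotrimeric G proteins. It lay at 6.11 and 7.25 with aphidicolin and at 1.72, 4.44 and 2.87 with hydroxyurea, and the other arrests spread from 0.06 to 6.83. The groups did not overlap, but the hydroxyurea arrays differed among themselves by more than those of the 3 genes above. The difference was -3.67 ± 1.07 (adjusted p = 0.775), and -2.27 ± 0.32 with a pseudocount of 16 (adjusted p = 0.0100). The call with the larger pseudocount was lost without aphidicolin replicate 2 (adjusted p = 0.112) and without hydroxyurea replicate 1 (0.0746) or 3 (0.0633).

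**Figure D1:**
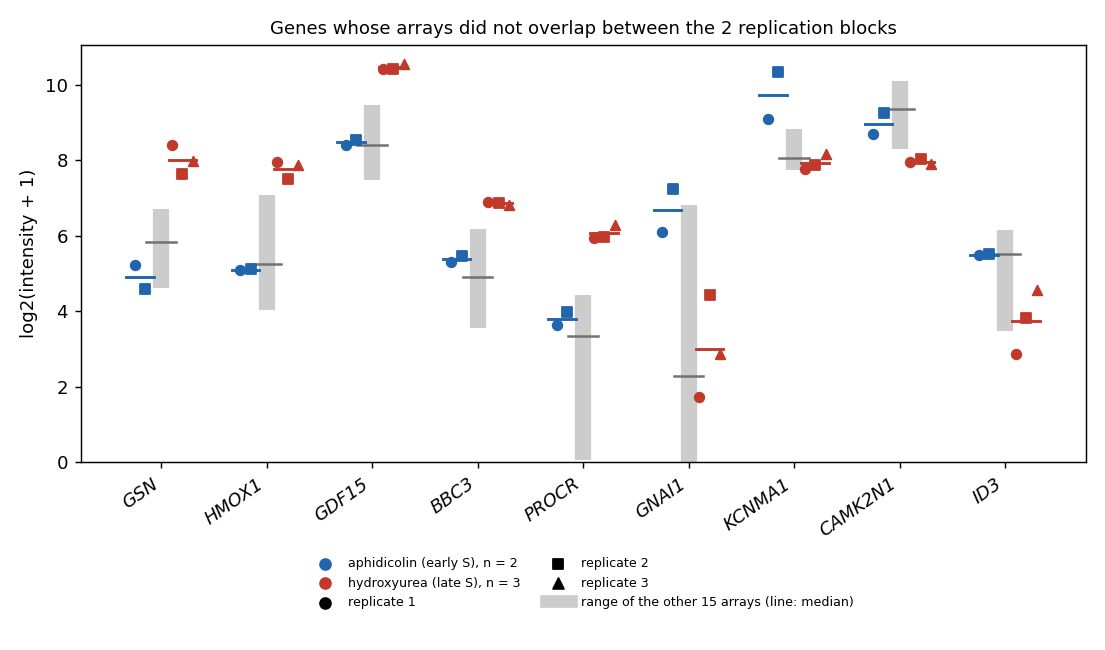
Levels, as log2(intensity + 1), of 9 genes whose arrays did not overlap between aphidicolin (blue, n = 2) and hydroxyurea (red, n = 3). Marker shapes give the replicate, short coloured lines the group means, and grey bars the range of the other 15 arrays with its median. For GSN, HMOX1, GDF15, BBC3 and PROCR the hydroxyurea arrays lie above the grey bar, for KCNMA1 the aphidicolin arrays do, and for CAMK2N1 the hydroxyurea arrays lie below it.

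The start regions of GDF15, called with the larger pseudocount, and of RRM2, a subunit gene of the hydroxyurea target, are shown as examples. Both hold elements known from promoters, but they are not the only called genes that do. RefSeq starts on GRCh38.p14 were found for 6 of 9 called genes looked for, and HMOX1, IER3 and SAA2 had no entry. The 250 bases before a start were searched on both strands for the CCAAT box, the TATAAA box, the cAMP element core TGACGT, the antioxidant element core TGACNNNGC and the p53 half-site. Capitals mark CCAAT or TATAAA as read on either strand, and none of these matches overlapped. GDF15 has 1 start in the table, on the plus strand (window chr19:18385908-18386157), with the sequence
GDF15: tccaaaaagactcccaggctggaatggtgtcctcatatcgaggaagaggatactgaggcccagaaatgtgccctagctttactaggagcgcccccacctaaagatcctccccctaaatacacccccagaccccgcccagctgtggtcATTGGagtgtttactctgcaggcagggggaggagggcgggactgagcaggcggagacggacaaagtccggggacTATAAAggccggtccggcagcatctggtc
The TATAAA begins 29 bases before the start, and 1 CCAAT (on the minus strand, read here as ATTGG) lies 103 bases before it. RRM2 is shown for the more downstream of its 2 starts, also on the plus strand (window chr2:10122489-10122738):
RRM2: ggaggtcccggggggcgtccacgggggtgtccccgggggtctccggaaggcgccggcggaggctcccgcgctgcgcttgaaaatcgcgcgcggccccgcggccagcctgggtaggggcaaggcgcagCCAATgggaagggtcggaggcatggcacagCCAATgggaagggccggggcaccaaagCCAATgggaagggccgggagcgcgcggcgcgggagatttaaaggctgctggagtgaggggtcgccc
This window holds CCAAT 3 times, at 123, 93 and 66 bases before the start. The window of the other RRM2 start, not shown, held 1 CCAAT, at 249 bases. Windows of GSN and OR1G1, also not shown, held CCAAT as well, and 1 window of GSN held TATAAA 29 bases before the start. Of 35114 such windows in the table, 32.0% held CCAAT, 2.93% held it at least 3 times, 10.7% held TATAAA, 7.10% held the cAMP core, 10.9% held the antioxidant core and 5.57% held a p53 half-site. The last 3 were not in either window shown. These matches describe letters only, and the arrays did not measure binding.

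The 1 gene that passed with a pseudocount of 1 was OR1G1, an olfactory receptor gene. It lay at 5.18, 3.61 and 4.82 with hydroxyurea and at 0.00 and 0.02 with aphidicolin, a difference of 4.53 ± 0.60 (adjusted p = 0.00629). The aphidicolin arrays were at the floor of the scale, but so were some arrays of the other arrests, which ran from 0.00 to 4.66. With a pseudocount of 16 the difference was 1.29 ± 0.29 (adjusted p = 0.356). The call was also lost without aphidicolin replicate 1 (adjusted p = 0.284), aphidicolin replicate 2 (0.272) or hydroxyurea replicate 3 (0.0634), and when the fit held the 5 S arrays alone (0.946).

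Several of the next genes by p had the same form, dim with hydroxyurea and near the floor with aphidicolin. RASGRF2, a guanine nucleotide exchange factor gene for RAS, lay at 5.27, 3.30 and 3.63 against 0.05 and 0.02. STXBP5, whose product tomosyn binds syntaxin, lay at 4.83, 2.95 and 3.59 against 0.45 and 0.01. Their differences, 4.03 ± 0.75 (adjusted p = 0.212) and 3.56 ± 0.75 (0.372), did not pass, and with a pseudocount of 16 they were 1.05 and 0.88. OR52B3P, OR5H6, PCSK7, MIR365A and ADAM11 completed the 10 genes of lowest p on that side, with differences from 2.86 for OR5H6 to 3.29 for PCSK7, none past the threshold.

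Brighter genes on the hydroxyurea side included PROCR, which encodes the endothelial protein C receptor. It lay at 5.94, 5.98 and 6.28 with hydroxyurea and at 3.64 and 3.98 with aphidicolin, against 0.06 to 4.43 in the other arrests. The difference was 2.26 ± 0.80 (adjusted p = 0.775), and 1.5 ± 0.26 with a pseudocount of 16 (adjusted p = 0.0563). CKS1B, a small subunit of cyclin-dependent kinases, stood at 9.31, 10.40 and 9.43 against 8.16 and 8.56, a difference of 1.35 ± 0.52 that did not pass. That value depended on the probe set: the 2 other features with its symbol gave -0.85 each.

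On the aphidicolin side, KCNMA1 was among the 10 genes of lowest p. It encodes the pore subunit of the large-conductance calcium-activated potassium channel, and lay at 9.11 and 10.34 with aphidicolin and at 7.77, 7.88 and 8.16 with hydroxyurea. Both aphidicolin arrays were above all other arrays of the series, the highest of the other 15 being 8.83, and the hydroxyurea arrays were within their range. The difference was -1.78 ± 0.51 (adjusted p = 0.775), and -1.73 ± 0.32 with a pseudocount of 16 (adjusted p = 0.0912), short of the threshold. Without aphidicolin replicate 1 it passed with the larger pseudocount, as did DPP4.

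ID3, whose product blocks DNA binding by helix-loop-helix factors, lay at 5.48 and 5.53 with aphidicolin and at 2.86, 3.82 and 4.58 with hydroxyurea (-1.76 ± 0.51, adjusted p = 0.775). DPP4, a cell surface dipeptidase gene, lay at 3.92 and 5.93 against 0.01, 3.22 and 1.96. KRT19, a keratin of simple epithelia, lay at 4.80 and 3.75 against 1.5, 2.58 and 1.12. For all 3 the groups did not overlap, and none passed with either pseudocount. MSMB, the gene of the prostate secretory protein β-microseminoprotein, and CXCR2, a chemokine receptor gene, were at 1.19 or less with hydroxyurea and at 2.91 to 4.51 with aphidicolin. Their differences, -3.41 ± 0.83 (adjusted p = 0.775) and -2.77 ± 0.62 (0.499), did not pass, and with a pseudocount of 16 they were -0.86 and -0.60. CA5BP1, OOSP2 and ZNF71 made up the 10, at -2.88, -2.52 and -2.54, none past the threshold.

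Of 6 genes for the enzymes the drugs act on, none passed between the blocks. RRM2 lay at 6.40, 7.05 and 6.44 with hydroxyurea and at 7.30 and 7.91 with aphidicolin. Every hydroxyurea array was below both aphidicolin arrays, and the difference of -0.98 ± 0.54 did not pass (95% interval -2.11 to 0.16, adjusted p = 0.775). RRM1, the large subunit gene of the reductase, lay at 5.39, 7.61 and 7.21 against 6.85 and 8.40, and RRM2B, the p53-inducible subunit gene, at 0.11, 5.52 and 3.27 against 3.03 and 4.71. Both overlapped between groups, with hydroxyurea replicate 1 lowest, and their intervals were wide: -2.79 to 1.01 for RRM1 and -3.77 to 1.97 for RRM2B. POLA1, the catalytic subunit gene of the polymerase that primes replication, differed by -0.31 ± 0.69 (interval -1.76 to 1.13). POLE, the leading-strand polymerase gene, lay at 2.33, 3.24 and 3.37 with hydroxyurea and at 4.66 and 3.51 with aphidicolin, and differed by -1.10 ± 0.67 (interval -2.50 to 0.29). POLD1, the lagging-strand polymerase gene, was too dim to compare, with 2.15 as its highest value on the 5 arrays.

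**Figure D2:**
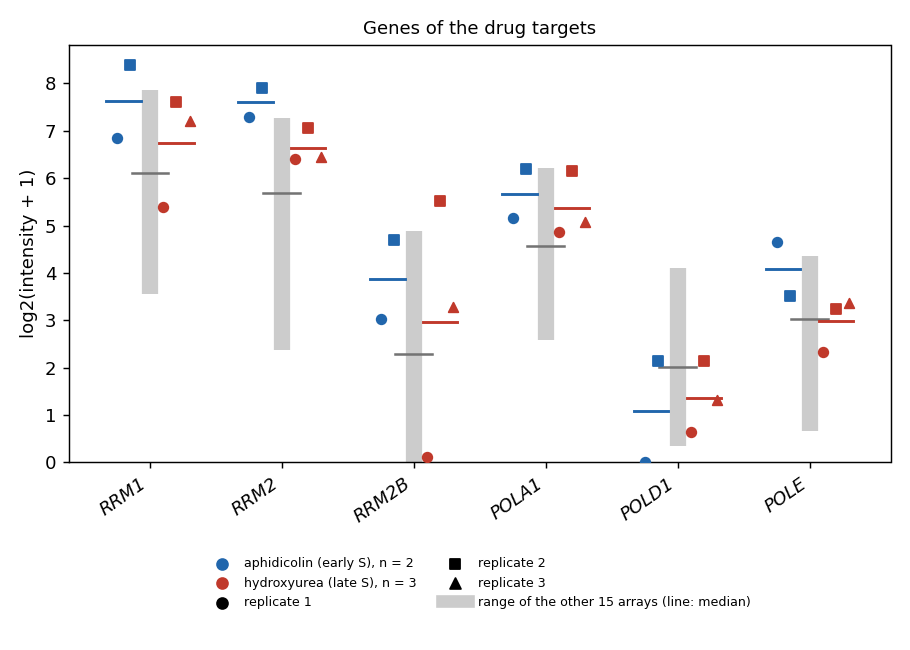
Levels, as log2(intensity + 1), of ribonucleotide reductase genes (RRM1, RRM2, RRM2B) and replicative polymerase genes (POLA1, POLD1, POLE) with aphidicolin (blue, n = 2) and hydroxyurea (red, n = 3), with group means as short lines and the range and median of the other 15 arrays in grey. RRM2 and POLE do not overlap between the groups, and hydroxyurea replicate 1 is the lowest of the 5 arrays for RRM1, RRM2, RRM2B, POLA1 and POLE.

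The medians of the replication gene groups were below 0, none of their members passed, and the medians moved with single arrays of either drug. Among all genes the median difference was -0.19, and -0.05 with a pseudocount of 16. Among genes with a mean of at least 4 it was -0.37 with a pseudocount of 1. These groups hold few dim genes: 6 of 30 supply genes and 8 of 32 fork genes had a mean below 4 on the 5 arrays. Over all genes that was 12366 of 18417, so -0.37 is the nearer background. In the reductase and deoxynucleotide supply group, 24 of 30 measured genes were below 0 with a median of -0.52, and 4 were lower without overlap. None passed, and TK1, the salvage thymidine kinase gene, was among them at -1.22 ± 0.66. The median was -0.03 without hydroxyurea replicate 1 (0.04 for all genes), -0.09 without aphidicolin replicate 2 (-0.13) and -1.01 without hydroxyurea replicate 2 (-0.38). Replicative polymerases and fork factors had a median of -0.44, which was -0.21 without hydroxyurea replicate 1 and -0.82 without hydroxyurea replicate 2. In that group 7 of 32 were lower without overlap, among them RFC2, a clamp loader subunit gene (3.89, 5.59 and 5.14 against 6.87 and 6.76). Origin licensing genes had a median of -0.65, with 17 of 20 below 0, which was -0.25 with a pseudocount of 16, -0.23 without hydroxyurea replicate 1 and -1.18 without hydroxyurea replicate 2. The 1 member without overlap, MCM5, went the other way and lay at 6.94, 5.42 and 6.49 with hydroxyurea and at 5.21 and 4.07 with aphidicolin. MCM5 encodes a subunit of the replicative helicase, and its difference of 1.64 ± 0.76 did not pass.

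No DNA repair or checkpoint gene passed. Homologous recombination and Fanconi genes had a median of -0.69 (20 of 27 below 0), which was 0.03 without hydroxyurea replicate 1. Replication stress checkpoint genes had a median of -0.36 (17 of 25 below 0), which was 0.22 without it and -1.25 without aphidicolin replicate 1. CHEK1, the kinase gene of the S phase checkpoint, overlapped between the groups (-1.02 ± 0.77). CDC25A, the phosphatase that CHK1 targets for degradation, was higher with hydroxyurea at 4.28, 3.90 and 4.0 against 1.61 and 2.92, without overlap and without passing (1.80 ± 0.68, adjusted p = 0.775). Translesion polymerases had a median of -0.41, with POLH, which copies past ultraviolet lesions, at -1.22 ± 0.85.

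What the blocks shared was tested with 5 arrays against 9, and what separated them with 3 against 2. Standard errors differed accordingly, 0.35 against 0.56 for HMOX1, so the 2 counts of calls cannot be compared. Against the other 3 arrests, 4 genes were higher by limma in the mean of both S blocks (0.0217% of genes tested) and 0 were lower. An unadjusted p below 0.05 was reached by 687 of 18417 genes. With a pseudocount of 16, 20 were higher (0.109%) and 1 was lower (0.00543%). All 5 S arrays lay above all 9 other arrest arrays for 12 genes (0.0652%), and below them for 0 (0%).

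IER3, a stress- and p53-responsive early gene that modulates survival, lay at 6.22, 6.44 and 6.49 with hydroxyurea and at 4.93 and 5.13 with aphidicolin. The other arrests ran from 0.00 to 2.35, far below both blocks. The shared difference was 4.49 ± 0.40 (adjusted p = 1.06e-05), and 1.94 with a pseudocount of 16 (adjusted p = 1.67e-08). Within the S blocks, hydroxyurea was higher without overlap by 1.35 ± 0.64, which did not pass (adjusted p = 0.775, and 0.0656 with a pseudocount of 16).

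SFN, which encodes 14-3-3 sigma, a p53-induced inhibitor of mitotic entry, lay at 8.20, 8.39 and 8.32 with hydroxyurea and at 7.83 and 7.13 with aphidicolin. The other arrests ran from 0.46 to 6.87 and did not reach either block. The shared difference was 4.07 ± 0.41 (adjusted p = 5.18e-05), 2.75 with a pseudocount of 16, and the blocks differed from each other by 0.82 ± 0.66 (interval -0.56 to 2.21). IER3 and SFN passed in every alternative that tested them and with any array left out; the filter on genes with a mean below 4 removed IER3.

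SAA2, an acute-phase serum amyloid gene, was dim but above the other arrests (2.61, 3.28 and 4.26 with hydroxyurea, 4.04 and 3.24 with aphidicolin, 0.00 to 2.10 elsewhere). Its shared difference was 2.86 ± 0.41 (adjusted p = 0.00773), and 0.68 with a pseudocount of 16. With the mean of its 2 features it was 1.51 and lost (adjusted p = 0.388), and it was lost without aphidicolin replicate 1 (adjusted p = 0.182). RRM2 was higher in both blocks than in the other arrests by 2.20 ± 0.34 (adjusted p = 0.0131). Set apart by drug, hydroxyurea stood 1.71 and aphidicolin 2.69 above the other arrests, whose arrays reached 7.26. That call was lost without aphidicolin replicate 1 (adjusted p = 0.0857), aphidicolin replicate 2 (0.257) or hydroxyurea replicate 2 (0.0663), and when the fit held the 5 arrests alone (0.104). With a pseudocount of 16 the difference was 1.55 ± 0.17 (adjusted p = 0.000292), and it passed with any array left out (adjusted p at most 0.00814) and in the fit of the 5 arrests alone (0.00339).

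**Figure D3:**
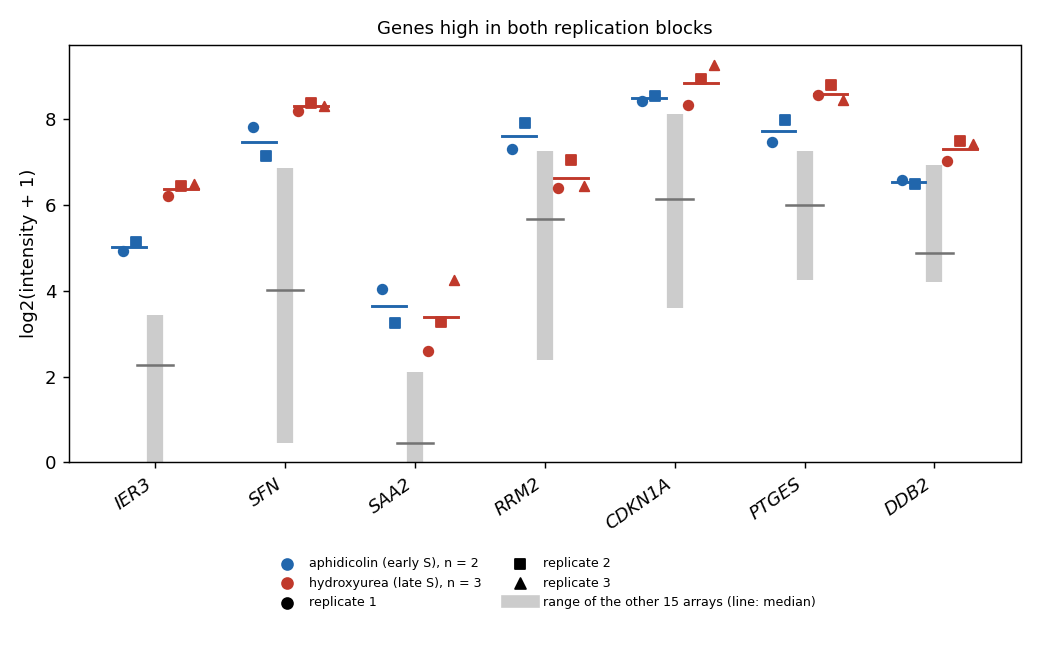
Levels, as log2(intensity + 1), of 7 genes high in both S blocks, with aphidicolin in blue (n = 2), hydroxyurea in red (n = 3), group means as short lines and the range and median of the other 15 arrays in grey. For IER3, SFN, SAA2, CDKN1A and PTGES all 5 S arrays lie above the grey bar, while for RRM2 the aphidicolin arrays do and for DDB2 the hydroxyurea arrays do.

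The genes that joined them with a pseudocount of 16 included several p53 targets. CDKN1A, the gene of the kinase inhibitor p21, lay at 8.34, 8.94 and 9.28 with hydroxyurea and at 8.43 and 8.54 with aphidicolin, against 4.26 to 8.13 in the other arrests. Its shared difference was 2.36 ± 0.41 (adjusted p = 0.0514), and 2.10 with a pseudocount of 16 (adjusted p = 0.000471). The 2 drugs overlapped for it, and their difference was 0.36 ± 0.66 (interval -1.02 to 1.74). DDB2, a DNA damage recognition gene, differed by 1.51 ± 0.30 from the other arrests (1.19 with a pseudocount of 16, adjusted p = 0.000546), and TP53I3, a quinone oxidoreductase gene, by 1.79 ± 0.42 (1.12, adjusted p = 0.0282). BBC3, which encodes the pro-apoptotic protein PUMA, passed as well (1.08 with a pseudocount of 16, adjusted p = 0.0153). By drug, hydroxyurea stood 2.23 above the other arrests, with aphidicolin 0.76 above them. Of 30 p53 targets measured, 26 were above 0 in this comparison, beside 9903 of 18417 for all genes. Their median was 0.58, beside 0.04 for all genes. Of these targets 1 passed, and 5 with a pseudocount of 16.

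Beyond p53 targets, PTGES, the gene of prostaglandin E synthase, lay at 8.56, 8.80 and 8.44 with hydroxyurea and at 7.46 and 7.99 with aphidicolin, against 4.26 to 7.26 (1.78 with a pseudocount of 16, adjusted p = 0.000546). SAA1, a second serum amyloid gene, lay at 5.65, 5.57 and 5.67 against 4.02 and 3.64 between the drugs, and passed for the mean of both blocks (0.91, adjusted p = 0.00186). The other arrests ran from 0.01 to 4.88 for SAA1, so both aphidicolin arrays lay inside their range and all hydroxyurea arrays above it. S100P, a calcium-binding protein gene, differed by 1.51 (adjusted p = 0.00502) and TSPAN1, a tetraspanin gene, by 1.43 (adjusted p = 0.00270) with the larger pseudocount. The alpha-tubulin genes TUBA1A, TUBA1B and TUBA4A were 0.83, 1.20 and 0.76 higher in the same fit. The nocodazole and roscovitine arrays are among those they were set against. MYBL2, an S phase transcription factor gene, was higher by 1.02 (adjusted p = 0.0320), with aphidicolin at 5.89 and 5.17 above hydroxyurea at 4.18, 4.24 and 4.57. RPRML, PROCR, HMOX1 and TYMSOS were the other genes higher in that fit. A call for the mean of both blocks does not mean that each block was higher: HMOX1 stood 2.79 above the other arrests with hydroxyurea and 0.12 ± 0.48 with aphidicolin, and PROCR 3.09 and 0.83 ± 0.69. DHRS2, a short-chain dehydrogenase gene, was the 1 gene lower (-0.61, adjusted p = 0.0273), at 2.27 or less on all 5 arrays against 0.00 to 5.57 in the other arrests. Of the 21, IER3, SFN, RRM2, CDKN1A, PTGES, DDB2, RPRML, SAA1 and TSPAN1 passed with any array left out, and each of the other 12 was lost without at least 1 array. The count of 21 was 10 without aphidicolin replicate 2 and 41 without hydroxyurea replicate 1.

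Between the drugs, p53 target genes had the highest median of the 29 gene groups examined, a rank that did not hold without aphidicolin replicate 1 or 2 or hydroxyurea replicate 2 or 3. Of 30 measured, 18 were higher with hydroxyurea, 6 of them without overlap, and 2 were lower without overlap, with a median of 0.30 (0.16 with a pseudocount of 16) beside -0.19 for all genes, which other scalings put at -0.08 (quantile) and -0.15 (median centring), with the p53 median then at 0.42 and 0.35. The 6 without overlap were GDF15, BBC3, FBXO22, DDB2, SFN and SESN2. GDF15 was the 1 member that passed, with a pseudocount of 16 only. BBC3 lay at 6.91, 6.86 and 6.82 with hydroxyurea and at 5.31 and 5.47 with aphidicolin, a difference of 1.48 ± 0.56 (adjusted p = 0.775). All 3 hydroxyurea arrays for BBC3 were above the 6.18 that was the highest of the other 15 arrays, and the aphidicolin arrays were inside their range.

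FBXO22, an F-box protein gene, lay at 8.25, 8.13 and 8.34 against 6.91 and 7.24 (1.17 ± 0.51). MDM2, which encodes the ligase that degrades p53, overlapped between the drugs, at 5.01, 7.59 and 6.67 against 5.02 and 7.06 (0.38 ± 0.93, interval -1.57 to 2.33). The members lower with hydroxyurea without overlap were ZMAT3 and SPATA18, at -1.23 and -1.05. Without hydroxyurea replicate 1 the p53 median was 0.59, and without hydroxyurea replicate 2 it was -0.09, beside -0.38 for all genes.

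**Figure D4:**
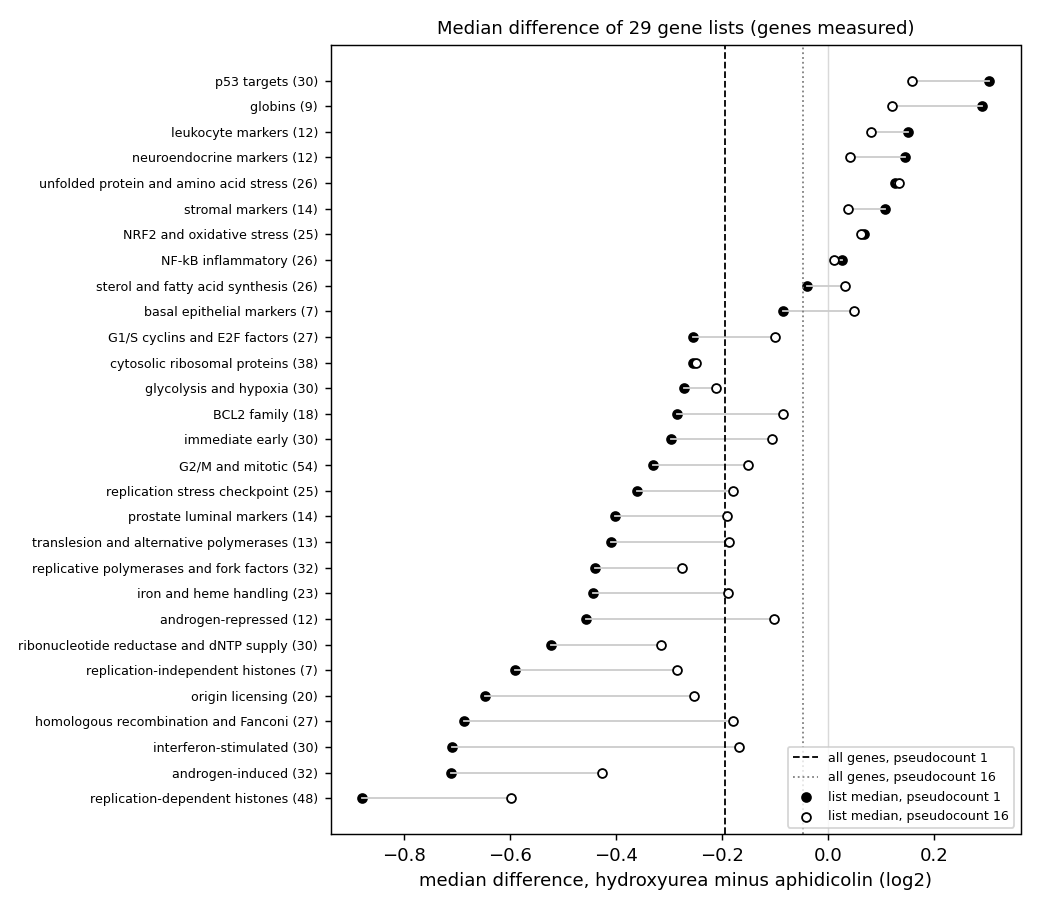
Median difference, hydroxyurea minus aphidicolin, in log2 units for 29 gene groups, with the number of genes measured in parentheses. Filled points use a pseudocount of 1 and open points 16. The dashed and dotted lines give the median of all genes, -0.19 and -0.05. Among genes with a mean of at least 4 it was -0.37 with a pseudocount of 1 (not drawn). p53 targets lie highest at 0.30 and replication-dependent histones lowest at -0.88, and none of the medians carries a test.

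The median of the replication-dependent histones was -0.88 (-0.60 with a pseudocount of 16), the lowest of the 29 groups on all 5 arrays but not without aphidicolin replicate 1 or hydroxyurea replicate 2. Of 48 measured, 39 were below 0, 9 were lower with hydroxyurea without overlap and 2 were higher, H4C4 and H3C3. None passed. H2BC17 lay at 3.53, 2.90 and 1.29 with hydroxyurea and at 5.23 and 3.76 with aphidicolin (-1.93 ± 0.66), and H2AC17 at 1.69, 3.20 and 3.15 against 4.90 and 4.09 (-1.82 ± 0.77). The mean over the 48 genes was 5.72 on aphidicolin replicate 1, against 4.46 on aphidicolin replicate 2 and 4.01, 4.68 and 4.55 on the hydroxyurea arrays. The 2 aphidicolin arrays thus differed from each other by more than the hydroxyurea arrays did, and aphidicolin replicate 2 lay among them. Without aphidicolin replicate 1 the median was -0.14, and without replicate 2 it was -1.59. The histone genes are near-identical copies, so their probe sets may share signal. Replication-independent histones, made throughout the cell cycle, had a median of -0.59 over 7 genes none of them without overlap.

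Androgen-induced genes had a median of -0.71 (-0.43 with a pseudocount of 16), with the same DHT in both groups. For all genes the median was -0.19 (-0.05), and -0.37 among genes with a mean of at least 4. The last is the nearer background, as 6 of 32 androgen-induced genes had a mean below 4 on the 5 arrays. Of 32 measured, 26 were below 0, beside 10738 of 18417 for all genes, and 6 were lower without overlap. None passed. RAB3B, a secretory vesicle GTPase gene, lay at 4.98, 3.37 and 4.72 with hydroxyurea and at 5.60 and 6.68 with aphidicolin (-1.79 ± 0.60, adjusted p = 0.775). Both aphidicolin arrays were above the 5.27 that the other 15 arrays reached at most, with hydroxyurea replicate 2 lowest of the 5. HERC3, a ubiquitin ligase gene, lay at 3.27, 5.43 and 3.62 against 5.67 and 6.71 (-2.08 ± 0.75).

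Of the kallikrein genes in the group, KLK4 was lower with hydroxyurea without overlap, at 6.12, 5.93 and 6.11 against 6.75 and 6.36 (-0.50 ± 0.61). KLK3 and KLK2 overlapped between the drugs. KLK3 lay at 9.17, 9.76 and 9.63 with hydroxyurea and at 9.06 and 9.37 with aphidicolin (0.30 ± 0.56, interval -0.87 to 1.47), and KLK2 at 8.38, 8.78 and 8.69 against 8.38 and 8.02 (0.41 ± 0.47, interval -0.56 to 1.39). Without hydroxyurea replicate 1, whose list mean was 3.79 against 4.96 to 5.77 on the other 4 arrays, the androgen-induced median was -0.15. Androgen-repressed genes had a median of -0.46 over 12 genes, which was 0.03 without hydroxyurea replicate 1 and -0.95 without hydroxyurea replicate 2. ACKR3, a chemokine scavenging receptor gene of that group, lay at 4.34, 5.62 and 4.70 with hydroxyurea and at 1.98 and 3.88 with aphidicolin (1.95 ± 0.59), and CAMK2N1, an inhibitor of a calcium-dependent kinase, at 7.95, 8.05 and 7.90 against 8.71 and 9.25 (-1.01 ± 0.47). These 2 went opposite ways, each without overlap and neither passing, and the CAMK2N1 level with hydroxyurea was below the 8.30 that was the lowest of the other 15 arrays.

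**Figure D5:**
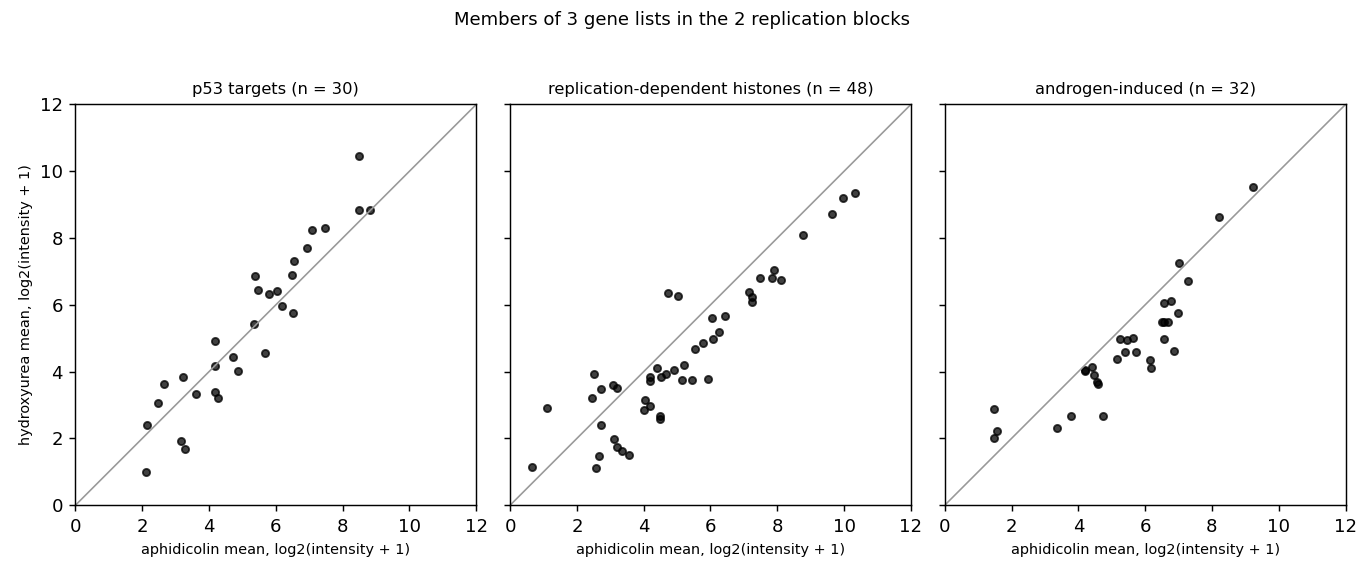
Group means of log2(intensity + 1) with aphidicolin (x axis, n = 2) against hydroxyurea (y axis, n = 3) for the members of 3 gene groups; the line marks equal levels. Of 30 p53 targets 18 lie above the line, of 48 replication-dependent histones 39 lie below it, and of 32 androgen-induced genes 26 lie below it. Of all 18417 genes (not drawn), 7679 were higher with hydroxyurea and 10738 lower.

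Of 25 genes of the NRF2 group, whose factor switches on antioxidant enzymes, 14 were above 0, 4 were higher with hydroxyurea without overlap and 0 were lower, and the median was 0.07 beside -0.19 for all genes. The 4 were HMOX1, AKR1C2, SRXN1 and AKR1C3. AKR1C2, an aldo-keto reductase gene that also acts on steroids, lay at 3.26, 4.59 and 4.30 against 2.48 and 2.48 (1.57 ± 0.77), and SRXN1, which encodes sulfiredoxin, at 7.19, 7.08 and 7.25 against 6.06 and 6.52 (0.88 ± 0.46). The quinone reductase NQO1 and the glutathione synthesis genes GCLM and GCLC differed by -0.21, -0.24 and 0.18. None of the group passed but HMOX1, with the larger pseudocount. Without hydroxyurea replicate 1 the group's median was 0.58.

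No gene of iron and heme handling passed. The median of that group was -0.44 over 23 genes, and -0.04 without hydroxyurea replicate 1, with 4 lower without overlap and 0 higher, among them ALAS1, the first enzyme of heme synthesis (2.85, 4.95 and 4.33 against 5.96 and 5.72). TFRC, which encodes the transferrin receptor, overlapped between the groups at 4.06, 7.06 and 6.06 against 5.74 and 7.12 (interval -3.04 to 1.63). Of 13 globin genes 9 were measured on probe sets with 1 symbol, and none passed. The other 4 were only on probe sets with several symbols and were not compared. Of the 9, 7 had a mean below 4 on the 5 arrays. The median of the 9 was 0.29, 0.12 with a pseudocount of 16 and 0.04 without aphidicolin replicate 2. HBZ, the embryonic zeta globin gene, had its highest of the 5 values at 2.24 (0.72 ± 0.82), with its other feature at -0.73.

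Genes of the unfolded protein and amino acid stress response had a median of 0.13, with 4 of 26 higher without overlap: XBP1, DDIT4, ATF4 and SESN2. XBP1, a factor of the unfolded protein response, lay at 6.84, 6.85 and 6.85 with hydroxyurea and at 5.55 and 6.21 with aphidicolin (0.96 ± 0.46). DDIT4, an inhibitor of mTORC1 induced by stress, lay at 8.31, 9.08 and 9.20 against 8.03 and 7.72 (0.99 ± 0.49). SLC3A2, an amino acid transporter subunit gene, went the other way (-1.40 ± 0.77), and DDIT3 and ATF3 overlapped between the groups, at 0.10 ± 0.76 and -0.32 ± 0.61. None passed.

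Inflammatory and signalling groups gave no common direction. The NF-κB group had a median of 0.03 with 3 of 26 apart in each direction, CCL20, a chemokine gene, being highest at 3.80, 5.68 and 4.98 against 0.95 and 3.61 (2.54 ± 0.76, adjusted p = 0.775). Interferon-stimulated genes had a median of -0.71 with 6 of 30 lower without overlap, among them CMPK2, a mitochondrial nucleotide kinase gene, at 2.60, 5.20 and 5.84 against 6.55 and 6.13. IFIT5, which binds viral RNA, was the 1 higher (2.12 ± 0.73), and the group's median was -0.17 with a pseudocount of 16, -0.27 without aphidicolin replicate 1, -0.21 without hydroxyurea replicate 3 and -1.21 without hydroxyurea replicate 2. Immediate early genes had a median of -0.30, with EGR1 at -0.53 ± 0.47 and FOS at -0.58 ± 0.68, while IER3 was 1 of 2 members higher without overlap and ID3 1 of 6 lower.

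No gene of the cell cycle groups passed between the blocks. G2/M genes had a median of -0.33 over 54 genes, and 0.06 without hydroxyurea replicate 1. Of the 54, 5 were higher (9.26%) and 8 lower (14.8%) without overlap, beside 8.69% and 10.2% of all genes. CCNB1, the mitotic cyclin gene, lay at 6.22, 7.23 and 6.58 against 6.77 and 7.43 (interval -1.53 to 0.69). CCNA2, the cyclin of S and G2 phase, was at 0.03 on hydroxyurea replicate 1 and at 5.07 and 3.66 on the other hydroxyurea arrays, against 3.86 and 5.78, with an interval of -4.75 to 0.95. CCNE1 and CCNE2, the G1/S cyclin genes, differed by -0.89 ± 0.67 and 0.15 ± 0.76. PCNA, the sliding clamp gene, lay at 7.09, 7.87 and 7.98 against 6.74 and 8.16, a difference of 0.20 ± 0.55, and TYMS, the thymidylate synthase gene, at 7.79, 8.25 and 8.13 against 7.20 and 8.61. G1/S cyclins and E2F factors had a median of -0.25, with 4 of 27 higher (14.8%) and 3 lower (11.1%) without overlap. E2F7, a repressor of the family, lay at 5.03, 2.69 and 3.11 against 0.52 and 1.93 (2.38 ± 0.89). MYC lay within 5.27 and 6.28 on all 5 arrays (0.17 ± 0.52).

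The remaining groups were the metabolic, apoptotic and cell type lists. Glycolysis and hypoxia genes had a median of -0.27 with 7 of 30 lower without overlap and 0 higher, TPI1, a glycolytic isomerase gene, being at 7.68, 8.53 and 8.41 against 9.84 and 9.03. Sterol and fatty acid genes (-0.04), cytosolic ribosomal proteins (-0.26) and the BCL2 family (-0.29) were the other groups of this kind, and the sterol median was 0.66 without aphidicolin replicate 2. BAD, a pro-apoptotic member, was lower without overlap (0.74, 2.76 and 2.60 against 4.86 and 3.75) where BBC3 was higher. Medians of the luminal, basal, stromal, leukocyte and neuroendocrine markers were -0.40, -0.09, 0.11, 0.15 and 0.15. The luminal median stayed below 0 with any single S array left out (-0.66 to -0.10), but the signs of the others were not stable. The basal median was 0.26 and the stromal median -0.11 without hydroxyurea replicate 1. The leukocyte median was -0.13 without hydroxyurea replicate 2, and the neuroendocrine median was -0.68 without aphidicolin replicate 2. EPCAM, an epithelial adhesion gene, was higher with hydroxyurea without overlap (8.46, 9.09 and 8.23 against 6.90 and 8.22), and RTN1, a reticulon gene of the neuroendocrine list, lower (2.57, 4.22 and 2.67 against 4.57 and 5.67). The mean of the stromal list was 2.62 to 2.70 with hydroxyurea and 2.55 to 2.62 with aphidicolin, that of the leukocyte list 2.53 to 3.25 and 2.64 to 2.86. Single members of the stromal list were not at the floor: COL1A1, a collagen gene, ran from 3.48 to 4.69 over the 5 arrays and ACTA2, a smooth muscle actin gene, from 3.11 to 5.0, while POSTN, which encodes periostin, was at 0.68 or less. FBN1, which encodes fibrillin, was at 5.93 on hydroxyurea replicate 1 and at 1.92 or less on the other 4 arrays. The part of these markers in the results was not tested.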

How the data were processed

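Whole-transcript Affymetrix arrays (Human Gene 1.0 ST) of 20 LNCaP samples were read from the deposited table of the series. Each deposited value is the intensity of a probe set. Per the submitters' processing notes, the authors used Affymetrix Expression Console 1.1. How probes were summarised, and whether arrays were normalized, is not given in the sources used here. RNA was taken with Trizol and amplified with the NuGEN Ovation Pico kit, per the labels' protocols. The values proved linear, with array medians from 5.44 to 9.08, and log2(intensity + 1) was taken with no further normalization.

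Of 33297 features, 19460 had 1 symbol in the platform annotation. The brightest feature was kept for 769 genes with several, which left 18417 genes. limma 3.58.1 in R 4.3.3 (lmFit, contrasts, eBayes) fitted 1 coefficient per group over 20 arrays, two-sided, with Benjamini-Hochberg adjustment and a threshold of 0.05. The second contrast set the equal-weight mean of the S blocks against that of early G1, late G1 and G2/M. An exact permutation test of 3 arrays against 2 has 10 splits and cannot reach the threshold, so none was made. The fit was tested on simulated data.

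Genes were named by rule: the 10 per direction that passed without overlap (filled by lowest p for hydroxyurea against aphidicolin), per gene group the members that passed (at most 6) and 3 others of lowest p, and a fixed set of cell cycle, target and hormone genes. Genes called only with a pseudocount of 16, and members given to complete a count or as further examples, were named after their values were seen. The members, rules and 29 gene groups were chosen with earlier results of these data known; groups are described by counts and medians and not tested. Alternatives were a pseudocount of 16, quantile normalization, median centring, a filter on genes with a mean below 4, the mean of a gene's features, a test of every feature, arrayWeights, eBayes with trend and robust, a replicate block, the compared groups alone and leaving out each array; combinations with a pseudocount of 16 were chosen after seeing the data. Whether replicate numbers pair the arrays was checked by residual correlations.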

Additional observations from a re-analysis of the deposited data

How the results depend on the processing

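Genes called between hydroxyurea and aphidicolin numbered 1, and 4 with a pseudocount of 16, 3 with eBayes trend and robust, 2 with arrayWeights and 0 with the compared groups alone; leaving out single S arrays gave 0 to 2. Which gene was called also varied: OR1G1 was not among the 4 with a pseudocount of 16, and with genes of mean below 4 left out it was not tested and the 1 gene was GSN. For both S blocks against the other arrests the count of 4 became 21 with a pseudocount of 16, 9 with quantile normalization, 8 with median centring, 10 with the filter on dim genes, 11 with eBayes trend and robust and 10 with arrayWeights, and 2 to 7 when single arrays were left out. With a pseudocount of 16, the 4 calls between the drugs became 11 with arrayWeights, 10 with quantile normalization (9 of them higher with hydroxyurea, against 3 of 4, and 1 of 4 without aphidicolin replicate 1) and 0 with the compared groups alone, and 0 to 4 without single S arrays (6 without G2/M replicate 3); the 21 shared calls became 57 with arrayWeights, 32 with quantile normalization, 12 with a replicate block and 10 to 41 without single arrays. The 9 calls not made under the block were HMOX1, BBC3, TYMSOS, TUBA1A, TUBA1B, TUBA4A, MYBL2, SAA2 and DHRS2. With a pseudocount of 1, RRM2 was not called for both blocks under it (adjusted p = 0.0538). With a replicate block the count between the drugs was 1, and 4 with a pseudocount of 16. Same-numbered arrays of the 2 blocks had residual correlations of 0.396 and 0.591, but over all groups same-numbered pairs had a median of -0.03 against 0.02 for other pairs, so the numbers are not shown to pair the arrays. The fit with the compared groups alone rests on fewer arrays, but why the counts differed between settings was not tested. Of the medians of gene groups under an alternative, 400 moved by less than the spread between replicates and 30 by more. The 400 are not all stable, because some changed sign within that spread. Without hydroxyurea replicate 1, homologous recombination genes went from -0.69 to 0.03 and replication stress checkpoint genes from -0.36 to 0.22. No called gene changed sign in any alternative. Signal limits the dim genes most: 12366 of 18417 genes had a mean below 4 on the 5 S arrays, while the filter on dim genes used the mean of all 20.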
